A study of Mus musculus with 20 samples.

Results

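The perilipins are the 5 genes Plin1, Plin2, Plin3, Plin4 and Plin5, each measured by 1 probe among 41174 probes and 27376 gene names on a mouse expression array. They were selected on measured values: probes carrying these gene names were picked after their pattern across the 4 groups and between the paired legs of these animals was known, so their values and differences are a description and carry no test. All 5 passed the filter on dim probes that left 15722 genes. Perilipins coat the lipid droplet, the organelle in which a cell stores triglyceride, and control how far lipases reach the stored fat. Plin1 belongs to adipocytes, Plin2 and Plin3 are made in most cells, and Plin4 and Plin5 are found in fat, heart and skeletal muscle. In muscle, droplets lie beside mitochondria, and peroxisome proliferator-activated receptors (PPARs) are known regulators of several perilipin genes.

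The tissue was EDL, the long toe extensor of the lower leg and a muscle of mainly fast fibres, from 10 C57Bl6 male mice aged 8 weeks when the recombinant adeno-associated virus rAAV6 was injected into the hindlimb. Group HS is the right leg with dnHDAC4/5 (2 vectors, for HDAC4 D832N and HDAC5 D861N, each a dominant negative histone deacetylase) in animals injected with Scriptaid, a histone deacetylase inhibitor, and group ES is the left, empty-vector leg of the same 5 animals. Group HV is the right, dnHDAC4/5 leg and group EV the left, empty-vector leg of the 5 animals given vehicle (5% DMSO in PBS). Each vector was given at 2.5e+10 vector genomes in 30 µL, and Scriptaid or vehicle followed 4 weeks later. Every leg carried vector, so no group is free of virus, and the labels give neither the dose of Scriptaid nor the promoter of the vectors. For ES the labels conflict, since the sample titles read vehicle. The other entries, which name Scriptaid and pair these legs with the HS legs, were followed.

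Replicate numbers name the slide, and each of the 5 slides held 1 array of every group, always in the same place, so an effect of that place and one of the group cannot be told apart. The array's 75th percentile of processed intensity lay between 248.4 and 608.1, and 51.7% to 61.3% of spots were well above background. Between 1.90% and 3.16% of spots in an edge zone of the HS arrays were more than 3 log2 units below their usual value, against at most 0.325% on arrays of the other groups, and no perilipin probe lies in that zone. Outside the zone, where the perilipin probes lie, such spots made up 0.933% on EV 5 and at most 0.253% (HS 5) on the other arrays. The log2 value below is the log2 processed intensity minus that percentile, and it allows no comparison of level between probes. The probes for native Hdac4 and Hdac5 gave differences of 0.29 ± 0.16 and -0.01 ± 0.11 (SE) for dnHDAC4/5 over empty-vector legs, neither called by limma (adjusted p = 0.525 and 0.989), and since the vector sequences are not given they check nothing about the vectors. The fast-fibre markers, among them Myh4 and Actn3, were above background on all 20 arrays.

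The probes are 60 bases long, and no run of more than 9 bases is shared between any pair of them. The first 30 bases of each, as the files give them, show what was hybridised.
Plin1 probe: catcagaaccaatttttaaggggcaccaga
Plin2 probe: tgtgttagtcttgtgaggacctggaggaac
Plin3 probe: ggatgttgcaattgtttcagatgagaaagt
Plin4 probe: cagcctgtgggtatgagacctgccctgaat
Plin5 probe: gctggaggaagacctggtgcccacatcatc

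Plin4 was higher in Scriptaid legs than in vehicle legs, with and without dnHDAC4/5. Plin4 is an amphipathic coat protein of small, newly formed droplets. Its log2 value was 6.64, 6.08, 6.39 and 6.19 in HS 1 to 4 and 6.39, 6.37, 6.32, 6.02 and 6.14 in the 5 ES legs. In vehicle animals it was 5.47, 5.77, 5.58, 5.78 and 5.72 in the 5 HV legs and 5.47, 5.52, 5.46 and 5.83 in EV 1, 2, 4 and 5. Every Scriptaid leg lay above every vehicle leg. The spots of HS 5 and EV 3 were left out because the scanner software marked them as non-uniform, and their values, 6.32 and 5.29, fall on the same sides. Plin4 averaged 6.33 ± 0.25 in HS legs (SD, n = 4) and 5.67 ± 0.13 in HV legs (SD, n = 5), a difference of 0.66 ± 0.13 (SE) or 1.58-fold. It averaged 6.25 ± 0.16 in ES legs (SD, n = 5) and 5.57 ± 0.17 in EV legs (SD, n = 4), a difference of 0.68 ± 0.13 (SE) or 1.60-fold.

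Since no vehicle leg reached a Scriptaid leg, the order within slides was fixed and adds no support. Plin4 was higher in ES than in EV on 4 of 4 slides, by 0.31 to 0.92. It was higher in HS than in HV on 4 of 4, by 0.30 to 1.17. Leaving out HS 1, the highest leg, gave 0.55 for dnHDAC4/5 legs. On HS 1 the 47 spots around the Plin4 probe were also above their usual values, by a median of 0.36. On HS 5, whose Plin4 spot was left out, they were above them by a median of 0.31. Their part in the values of these legs was not tested. Between dnHDAC4/5 and empty-vector legs the Plin4 differences were below their errors: HS minus ES was 0.08 ± 0.13 and HV minus EV 0.09 ± 0.13 (SE). Both were under the spread within groups of 0.18 (SD). Errors of this size do not show that the vectors had no effect on Plin4. In 6 of 8 animals with both legs measured the dnHDAC4/5 leg was higher than the empty-vector leg, by amounts between -0.29 and 0.31.

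**Figure D1:**
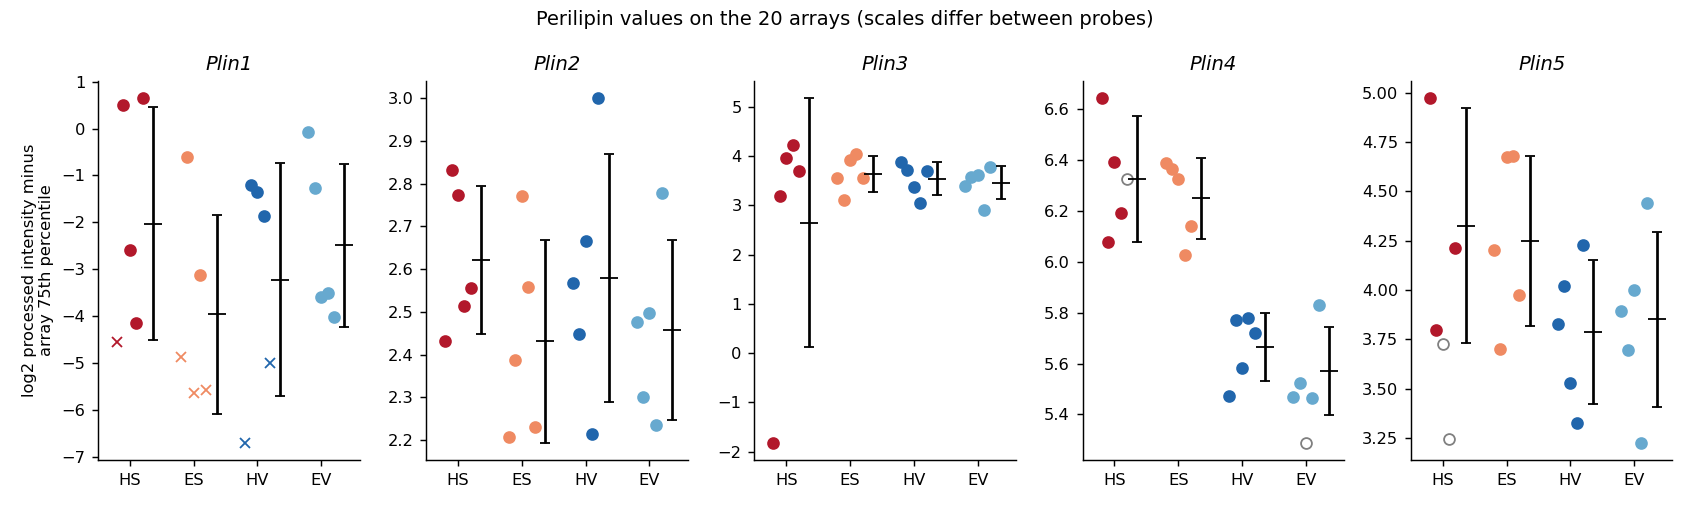
Log2 value (processed intensity minus the array's 75th percentile) of each perilipin in the HS, ES, HV and EV legs, with the mean and SD beside each group. Crosses are spots not well above background, open grey circles spots left out of the means, and for Plin4 every Scriptaid leg (HS, ES) lies above every vehicle leg (HV, EV).

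The contrast that the choice of genes used already holds this pattern, so the counts below are given only for scale. Of the 15722 genes, 8 (0.0509%) had all their Scriptaid legs above all vehicle legs; Plin4 was one, and Ppara, the PPAR of fat-burning tissues, and Fkbp5, a glucocorticoid-induced chaperone, were others. ES lay above EV without overlap for 113 genes (0.719%) and HS above HV for 223 (1.42%), in each case with Plin4 as the only perilipin. With limma at an adjusted p under 0.05, 202 genes were called for Scriptaid in dnHDAC4/5 legs (1.28%), Plin4 among them, but 1 of 14481 (0.00691%) once edge spots were left out, and that gene was not Plin4. For Scriptaid in empty-vector legs no gene was called (0.0%, with 603 genes at an unadjusted p under 0.05), and on the mean of both legs of an animal 32 of 15709 genes were called (0.204%; 0 without edge spots), no perilipin among them. The call for Plin4 was also lost without HS 1, HS 3 or HV 1.

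Plin5, which ties droplets to mitochondria in oxidative tissue and restrains lipolysis, is the neighbour of Plin4 on chromosome 17. Its log2 value was 4.97, 3.80 and 4.21 in HS 1, 2 and 5 and 4.20, 3.70, 4.67, 4.68 and 3.97 in the ES legs. It was 3.83, 4.02, 3.53, 3.32 and 4.23 in HV legs and 3.89, 3.70, 4.00, 3.23 and 4.44 in EV legs. The groups overlapped throughout, and the spots of HS 3 and HS 4 were left out as non-uniform. The difference was 0.54 ± 0.31 for HS minus HV and 0.40 ± 0.27 for ES minus EV (SE), the second above 0 on 4 of 5 slides and the first on 1 of 3. On HS 1 the 48 spots around the Plin5 probe were above their usual values by a median of 0.26, and their part was not tested. Without HS 1, HS minus HV was 0.22. The authors' deposited values, which keep the spots of HS 3 and HS 4, gave 0.16. For the vector the difference was 0.08 ± 0.31 (SE) in Scriptaid animals, but -0.24 without HS 1 and -0.32 in the deposited values, while the 3 Scriptaid animals with both legs measured gave 0.37 ± 0.36 (mean ± SD), higher in 3 of 3. It was -0.07 ± 0.27 (SE) in vehicle animals.

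Plin4 and Plin5 correlated over the 16 arrays that measured both (Pearson's r = 0.62, Spearman's rho = 0.54), with r = 0.43 for deviations from the group means and 0.46 without the 2 arrays farthest from the median of Plin4. The arrays come in pairs from the same animal, and the value is a description. By gene order in RefSeq, Hdgfl2 lies on one side of this pair and Lrg1 on the other. Hdgfl2 differed by 0.03 in HS minus HV and -0.02 in ES minus EV, and Lrg1, a secreted leucine-rich glycoprotein, by 0.54 and 0.68, neither called. Plin3 lies further along the same chromosome.

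The promoter windows of Plin4 and Plin5 are shown because Plin4 is the perilipin whose groups do not overlap and Plin5 is its neighbour. On the mean of both legs their Scriptaid differences were 0.67 ± 0.13 and 0.32 ± 0.26 (SE). That of Plin5 rests on 3 Scriptaid animals and was 0.10 without ES 1 and 0.13 with the slide as a block. Each window runs from 250 bases before to 50 after the start of the transcript, minus strand, build GRCm38.p6, from RefSeq. All 5 perilipins matched a window, Plin5 with 2. Capitals mark AGGTCA, the single recognition element of many nuclear receptors, searched on both strands.
Plin4, chr17:56109733-56110032: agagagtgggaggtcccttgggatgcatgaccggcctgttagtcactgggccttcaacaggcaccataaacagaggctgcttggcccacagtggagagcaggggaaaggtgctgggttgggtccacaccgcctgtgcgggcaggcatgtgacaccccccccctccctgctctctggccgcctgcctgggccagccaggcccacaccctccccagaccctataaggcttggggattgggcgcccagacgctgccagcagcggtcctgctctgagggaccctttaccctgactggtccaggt
Plin5, chr17:56117499-56117798: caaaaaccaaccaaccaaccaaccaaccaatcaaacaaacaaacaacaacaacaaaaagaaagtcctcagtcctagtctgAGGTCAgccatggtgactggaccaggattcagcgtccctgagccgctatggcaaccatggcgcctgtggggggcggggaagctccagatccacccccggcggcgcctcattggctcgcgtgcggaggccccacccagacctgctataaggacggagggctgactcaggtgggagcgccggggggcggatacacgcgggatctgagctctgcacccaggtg

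AGGTCA occurs in the Plin5 windows and the Plin2 window, and in 16.3% of all 32851 windows. A pair of AGGTCA in the same direction with 1 base between, the textbook PPAR element, was in none of the perilipin windows even with 1 mismatch allowed, and in 0.554% of all windows at that allowance. The E-box CANNTG reads the same on both strands and was counted once per site: 1 lies in the Plin4 window, 2 in the Plin5 window shown and none in that of Plin3, and 72.3% of all windows hold at least 1. These matches describe letters in the windows and no more.

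Plin2, the droplet coat of most cells, gave no difference above 0.19 between groups. Its log2 value was 2.43, 2.83, 2.77, 2.51 and 2.56 in HS legs and 2.21, 2.39, 2.77, 2.56 and 2.23 in ES legs. It was 2.57, 2.45, 2.67, 2.21 and 3.00 in HV legs and 2.48, 2.30, 2.50, 2.24 and 2.78 in EV legs. All 4 groups overlapped. The dnHDAC4/5 leg was higher than the empty-vector leg in 4 of 5 Scriptaid animals and 4 of 5 vehicle animals, by 0.16 ± 0.16 over all 10 (mean ± SD). Scriptaid differences were 0.04 ± 0.15 in dnHDAC4/5 legs and -0.03 ± 0.15 in empty-vector legs (SE).

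**Figure D2:**
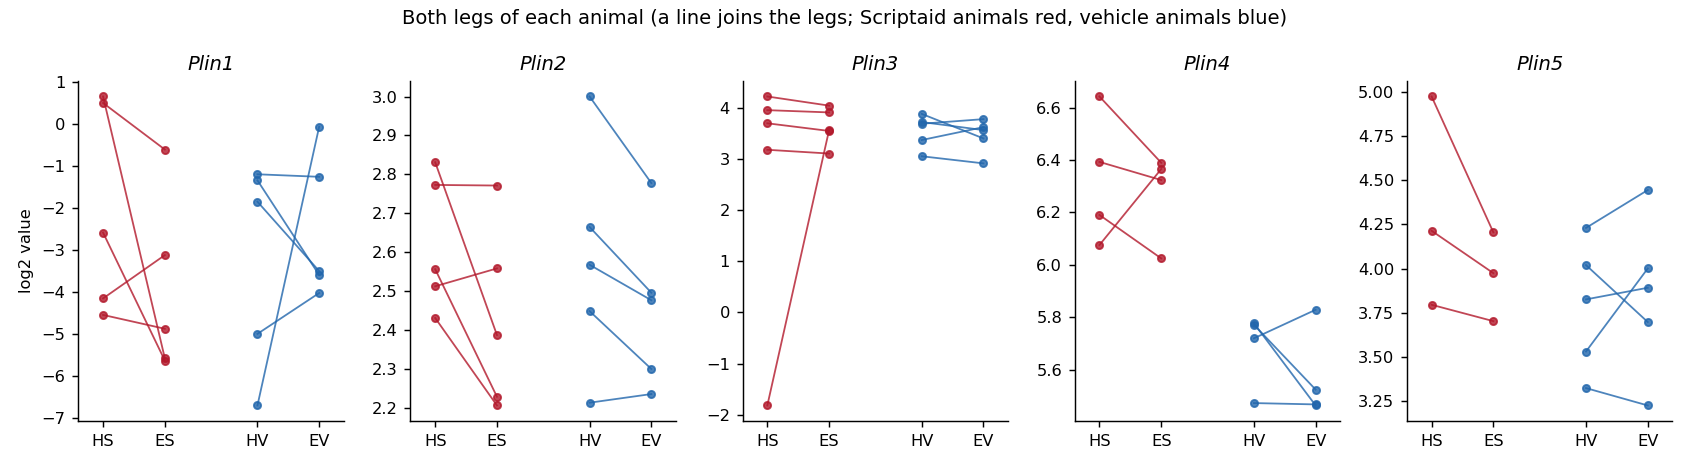
Log2 value of each perilipin in both legs of each animal, dnHDAC4/5 leg left and empty-vector leg right within each pair, Scriptaid animals (HS, ES) in red and vehicle animals (HV, EV) in blue. The dnHDAC4/5 leg is the higher one in 8 of 10 animals for Plin2, and for Plin1 the lines cross.

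Plin3, a cytosolic protein that moves to new droplets, turned on 1 array. Its log2 value was -1.82 in HS 1 and 3.18, 3.95, 4.22 and 3.70 in the other HS legs, and 3.56, 3.10, 3.91, 4.04 and 3.55 in ES legs. It lay between 3.05 and 3.88 in HV legs and between 2.91 and 3.78 in EV legs. All legs but HS 1 overlapped. The spot of HS 1 was well above background and not marked by the scanner software, and the 47 spots around it deviated by a median of 0.23, upward. With that array the differences were -0.99 ± 0.77 for HS minus ES and -0.90 ± 0.77 for HS minus HV (SE), and without it 0.13 and 0.22. ES minus EV was 0.18 ± 0.77 and HV minus EV 0.09 ± 0.77 (SE), with an error that HS 1 widens through the shared estimate of spread.

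Plin1, the adipocyte perilipin that shields stored fat and holds the lipase co-activator ABHD5, varied most. Its log2 value was -4.55, 0.49, -2.59, -4.15 and 0.65 in HS legs and -4.87, -0.61, -5.63, -3.12 and -5.57 in ES legs. It was -6.70, -1.20, -1.35, -1.85 and -4.996 in HV legs and -0.07, -1.26, -3.60, -3.50 and -4.02 in EV legs. The groups overlapped, and the range was 5.19 in HS, 5.01 in ES, 5.49 in HV and 3.955 in EV legs, against 7.34 over all arrays. The probe was well above background in 4 HS, 2 ES, 3 HV and 5 EV legs. Differences were 1.19 ± 1.31 for HS minus HV, -1.47 ± 1.31 for ES minus EV, 1.93 ± 1.31 for HS minus ES and -0.73 ± 1.31 for HV minus EV (SE). Without HV 1, the lowest leg, HV minus EV became 0.14 and HS minus HV 0.32.

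The dnHDAC4/5 leg differed from the empty-vector leg of the same animal by -6.63 to 6.22. Both extremes are set against a spot not well above background (HV 1 with a processed intensity of 3.26 and ES 5 with 8.78), so their size has no exact meaning. By the likeness measure used here (Pearson's r over the arrays), the 5 genes most like Plin1 were Cfd (adipsin, r = 0.98), Cidec (a protein that fuses droplets in fat, 0.98), Adipoq (adiponectin, 0.98), Retn (resistin, 0.96) and Cyp2e1 (a cytochrome P450, 0.96), over 20 arrays and 13636 genes. Spearman's rho with Plin1 was 0.98 for Cfd, 0.96 for Cidec, 0.97 for Adipoq and 0.96 for Retn. Other genes of the adipocyte list tracked it less or not at all. Pearson's r was -0.18 for Fabp4, a fatty acid binding protein, 0.03 for Car3, a carbonic anhydrase, 0.17 for Lipe, hormone-sensitive lipase, and 0.23 for Thrsp. It was 0.47 for Pnpla3 and 0.46 for Scd1, whose probe lies in the edge zone, with a median of 0.47 over the 10 measured. Car3 had group means of 6.97 to 7.31, as high as the fast-fibre markers, and a ceiling on its signal was not tested. The 9 slow-fibre markers gave a median r of 0.48 with Plin1, from -0.15 to 0.66. Adipoq ranged from -2.02 to 3.05 in HS legs, -4.04 to 2.19 in ES legs, -3.31 to 1.37 in HV legs and -1.96 to 2.24 in EV legs. Of the adipocyte marker list, 10 of 11 genes were measured, 7 of them above background on every array, and Cidec, Lipe and Pnpla3 also stand in the lipid lists used below. Their mean log2 value per array lay between 0.28 and 2.39 in HS, -0.40 and 2.55 in ES, -0.06 and 2.14 in HV and -0.10 and 2.43 in EV legs. In whole muscle, fewer adipocytes and less RNA per adipocyte cannot be told apart, and the part of adipocyte or slow-fibre RNA in the Plin1 values was not tested.

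**Figure D3:**
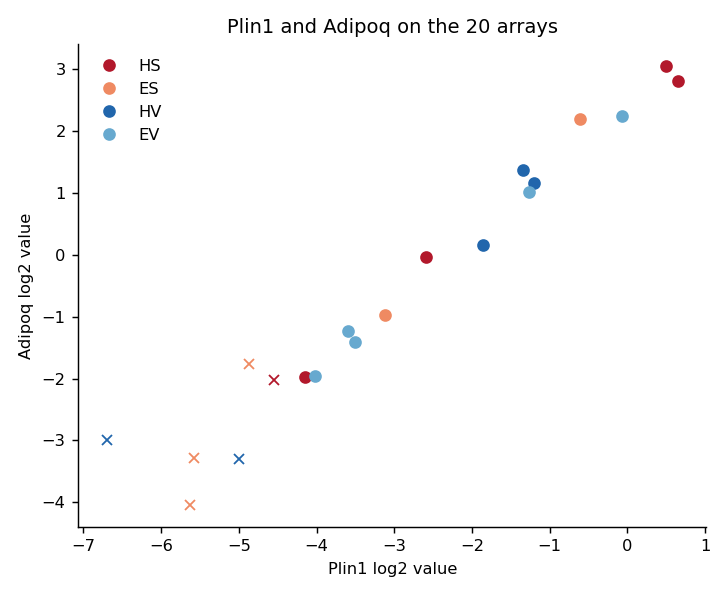
Log2 value of Plin1 (horizontal) and Adipoq (vertical) on each of the 20 arrays, coloured by group, with crosses where Plin1 was not well above background. The points of all groups run along one rising line.

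Beside the Plin4 differences of 0.66 and 0.68, the median difference of the adipocyte markers was 0.56 for HS minus HV and -0.64 for ES minus EV. With edge spots left out, which removes Scd1, these medians were 0.85 and -0.06 over 9 genes. The correlation of Plin4 with single adipocyte markers ran from -0.62 to 0.35 over the arrays. The slow-fibre markers had medians of 0.47 and -0.81 in the same comparisons, the fast-fibre markers -0.09 and -0.03, and the macrophage markers 0.25 and -0.01. The mean of the fast-fibre list was highest on HS 1 (7.87), where the array's 75th percentile was lowest (248.4). It was lowest on ES 3 (6.62), where that percentile was highest (608.1). Whether these bright probes lay near the scanner's ceiling was not tested, so their medians are no measure of fibre content. The part of these cell types in the Plin4 values was not tested. Limma called no gene of these 4 lists in any of the 7 comparisons. Over all genes it called at most 1.28% in any of them. The share was 0.0% for Scriptaid in empty-vector legs and for the vector in vehicle animals.

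The genes most like Plin4 over 18 arrays were Pim3, a serine/threonine kinase (r = 0.89), Per1, a clock gene (0.89), Pkp4, a plakophilin (0.87), Fkbp5 (0.85) and Lin7a, a scaffold protein (0.85). For deviations from the group means, r was 0.65 for Pim3, 0.64 for Per1, 0.38 for Pkp4, 0.24 for Fkbp5 and 0.47 for Lin7a, lower than over all arrays in each case. Since Plin4 separates Scriptaid from vehicle legs, genes chosen for likeness to it differ the same way by construction, and their differences are a description. HS minus HV and ES minus EV were 1.32 and 0.64 for Per1, 0.73 and 0.53 for Pim3, and 1.14 and 1.04 for Fkbp5. The probe used for Per1 lies in the edge zone, and so does that of Lin7a. For Plin5 the leading gene was Tymp (r = 0.82), for Plin2 Mfng (0.82) and for Plin3 Lig3 (0.97). The last fell to 0.46 without HS 1, and the number of genes with r over 0.9 to Plin3 was 13 with that array and 0 without it.

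**Figure D4:**
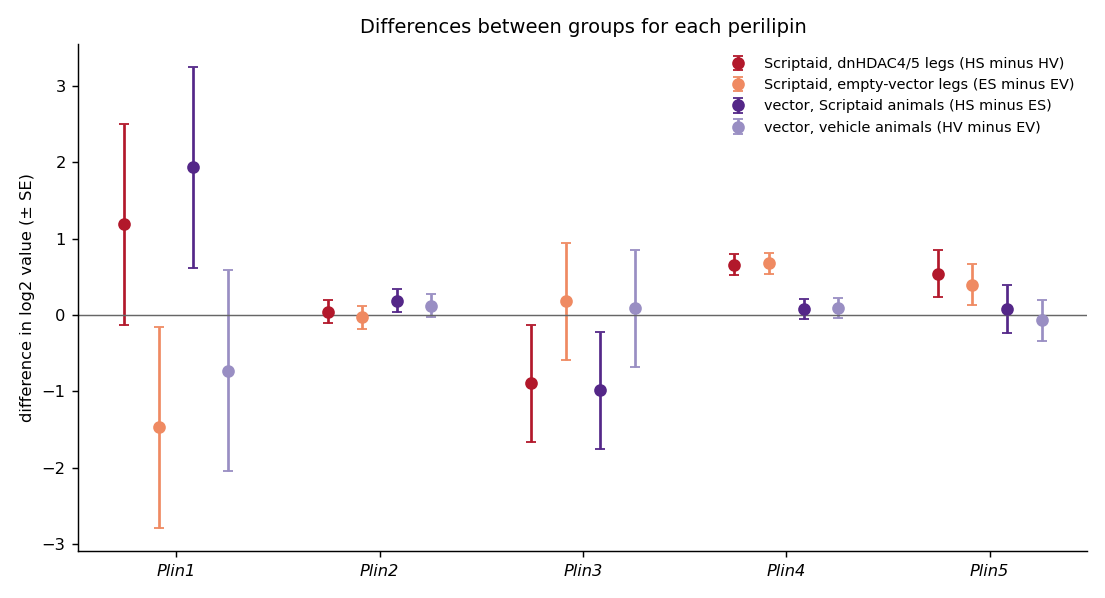
Difference in log2 value, with SE, of each perilipin in 4 comparisons: Scriptaid in dnHDAC4/5 legs, Scriptaid in empty-vector legs, the vector in Scriptaid animals and the vector in vehicle animals. For Plin4 the Scriptaid differences are 0.66 and 0.68 with an error of 0.13, and for Plin1 and Plin3 the errors are wide.

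Across all genes the vector comparisons called 195 genes in Scriptaid animals (1.24%; 697 with the animal as a block, 0 without edge spots), 0 in vehicle animals (0.0%; 4 with the block, 729 at an unadjusted p under 0.05), 172 over both injections (1.09%; 768 with the block; 31 or 0.214% without edge spots) and 28 for the interaction (0.178%; 66 with the block, 0 without edge spots). No perilipin was among any of them, with or without the block. The interaction, the vector difference in Scriptaid animals minus that in vehicle animals, was -0.02 ± 0.19 for Plin4, 0.15 ± 0.41 for Plin5, 0.07 ± 0.21 for Plin2, -1.07 ± 1.08 for Plin3 and 2.66 ± 1.86 for Plin1 (SE).

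Among the genes of 5 lists around the droplet, none passed limma's test in either leg for Scriptaid. Over all genes 1.28% were called in dnHDAC4/5 legs and 0.0% in empty-vector legs, so this count says little about the lists. Of 9 PPAR receptors and partners, 6 were higher in HS than in HV legs and 7 in ES than in EV legs, with medians of 0.31 and 0.08 against 0.04 and 0.01 over all genes. Ppara differed by 0.83 ± 0.23 and 0.71 ± 0.23 (SE; adjusted p = 0.102 and 1), and its co-activator Ppargc1a by 0.56 ± 0.16 and 0.35 ± 0.16 (0.0999 and 1). Of 17 PPAR target genes of muscle, 13 were higher in each comparison, with medians of 0.21 and 0.15. Slc25a20, the mitochondrial carnitine carrier, differed by 0.67 ± 0.34 in HS minus HV (adjusted p = 0.502), and Slc27a1, a fatty acid transporter, by 0.88 ± 0.42 in ES minus EV (SE; adjusted p = 1). The spread was wide, with an SD of 0.95 for Slc25a20 in HV legs and 1.08 for Slc27a1 in EV legs. Lpl differed by 0.44 ± 0.18 in HS minus HV (SE; limma adjusted p = 0.369). In each comparison 4 of the 17 were lower, among them Ehhadh in ES minus EV, by -0.25 ± 0.15 (SE).

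No gene of lipolysis or droplet building was called by limma for Scriptaid in either leg, beside the same 1.28% and 0.0% over all genes. Of 10 genes of lipolysis and its brakes, 7 were higher in HS than in HV and 8 in ES than in EV, with medians of 0.15 and 0.11. Pnpla2, the main triglyceride lipase, differed by 0.36 ± 0.23 in ES minus EV (SE; adjusted p = 1), and Abhd5, the co-activator of that lipase, by -0.90 ± 0.46 in HS minus HV and -0.39 ± 0.46 in ES minus EV (SE; adjusted p = 0.525 and 1), its probe being in the edge zone. Of 12 genes of droplet formation and growth, 7 were higher in each comparison, with medians of 0.04 and 0.05, and Cidec differed by 1.37 ± 1.21 and -1.43 ± 1.21 (SE; adjusted p = 0.760 and 1). Of 13 genes of triglyceride synthesis, 8 and 7 were higher, with medians of 0.10 and 0.02, and Lpin1, a phosphatidate phosphatase, differed by 0.39 ± 0.18 in ES minus EV (SE; adjusted p = 1). Agpat9, an acyltransferase whose probe lies in the edge zone, differed by -2.84 ± 0.82 in HS minus HV and -0.36 ± 0.82 in ES minus EV (SE; adjusted p = 0.117 and 1).

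For the vector, Lpin2, a phosphatidate phosphatase of the same family, was the only gene of the pathway lists to pass with limma. It was higher in dnHDAC4/5 legs over both injections by 1.30 ± 0.30 (SE; adjusted p = 0.039). Over all genes 172 of 15722 (1.09%) were called in that comparison, so 1 call says nothing about the lists as a whole. Lpin2 is described as a single gene. Lpin2 averaged 0.83 ± 0.89 in HS and -0.54 ± 0.09 in ES legs, and 0.73 ± 1.05 in HV and -0.51 ± 0.24 in EV legs (SD). The call did not hold without edge spots (adjusted p = 0.067), although its own probe is not there, and it held in 6 of the 20 settings that leave out 1 array, with differences between 1.14 and 1.47.

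**Figure D5:**
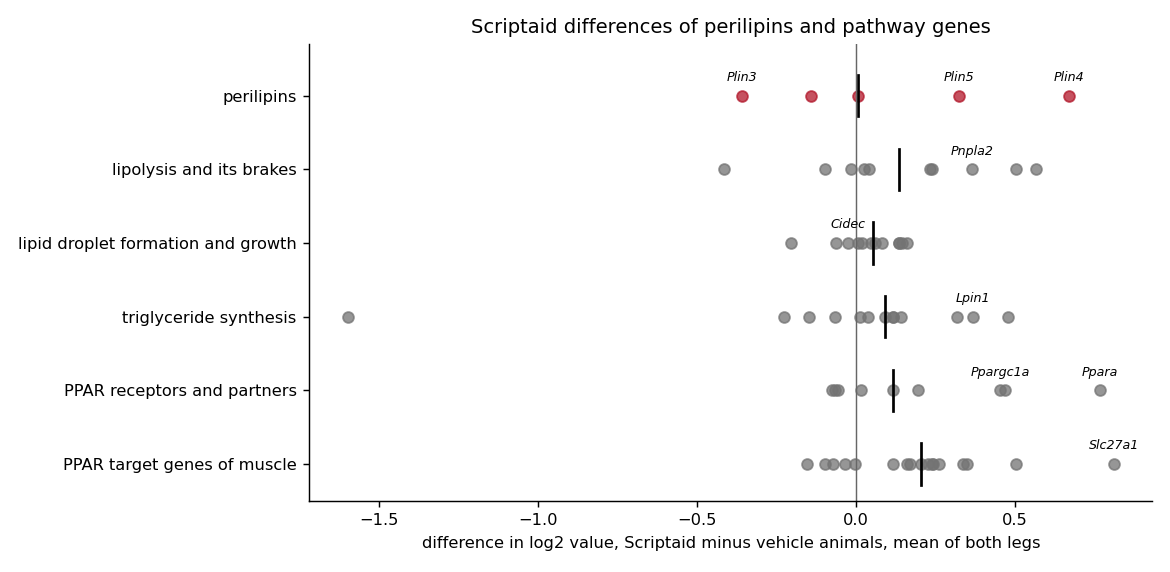
Difference in log2 value between Scriptaid and vehicle animals, each animal taken as the mean of both legs, for the perilipins (red) and the genes of 5 pathway lists (grey), with list medians as black bars. Plin4 stands at 0.67 and the other perilipins between -0.36 (Plin3) and 0.32 (Plin5), with Plin2, the middle one, at 0.007. The pathway list medians lie between 0.05 and 0.21, and single list genes stand above Plin4, among them Slc27a1 at 0.81 and Ppara at 0.77.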

How the data were processed

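Per the file headers, one-colour Agilent-014868 arrays were processed with Feature Extraction 9.5.1.1 (protocol GE1-v5_95_Feb07), which subtracted background and removed a spatial trend, and its processed intensity was deposited for every spot. The authors' deposited matrix holds a ratio, that intensity divided by one constant per array. The log2 intensity minus the array's 75th percentile over 43379 non-control spots was used. Spots marked as non-uniform or population outliers were left out, and probes well above background on at least 5 arrays with 3 per group were kept (23600). Where several probes of a gene were kept, the brightest on average was used.

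Group means were fitted with limma 3.58.1 in R 4.3.3, two-sided, adjusted by Benjamini-Hochberg over all genes. The fit was also run on simulated legs. These were drawn independently, without animal, slide or edge effects, so that run does not cover such effects. For 1 comparison the mean of both legs of each animal was fitted, where both were measured. In that fit the p-values measure the spread between animals. The other main fits took each leg as a separate array and left out the animal. Their p-values measure the spread between legs within groups and ignore the pairing. Same-numbered legs under the same injection come from the same animal per the labels, and their deviations correlated by 0.03 to 0.41. Legs of different animals on the same slide correlated by 0.15 to 0.27 (ES with EV) and 0.05 to 0.39 (HS with HV). Both legs of an animal share a slide, so the first range is no measure of the animal alone. The members, the 9 gene lists and the edge zone (top 10 and bottom 5 rows, right 10 columns) were chosen with earlier results of these data known. Named genes are called list genes and the 3 of largest moderated statistic per list and comparison that bear on the account, and the 5 genes of highest r per perilipin, clone names passed over. Protein sequences were not used here. Alternatives covered blocks, background, normalization, filters and single arrays. The number of arrays limits the precision.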

Additional observations from a re-analysis of the deposited data

Results flagged for a closer look

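In HS 1 the log2 value of Plin3, -1.82, stood apart from the other 4 HS legs: its gap to the nearest of them was 0.828 of the group's range, above Dixon's limit of 0.71 for 5 samples. The processed intensity of the spot was 70.5, against 3317 to 10112 in the other HS legs, and all legs of the other groups lay at 3039 or more. In EV 5 the value of Plin4, 5.83, had a gap of 0.834 of the range of the 4 EV legs, just over the corresponding limit for 4 samples, and it is the vehicle leg nearest to the Scriptaid legs, with 0.20 between it and the lowest ES leg. The EV group held 4 values because EV 3 was left out. Of 19 groups examined, chance alone flags about 1 in 20.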

How the results depend on the processing

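Over the 35 differences of the 5 perilipins, 1030 of 1038 values from alternative settings moved by less than the spread within groups. That yardstick is wide for Plin1 (SD 2.23) and Plin3 (SD 1.30, which HS 1 sets), so it says nothing of their stability. The sign turned in 9 values of Plin1, 22 of Plin2, 7 of Plin3, 12 of Plin4 (the interaction, or the vector in Scriptaid animals) and 23 of Plin5. The 8 exceptions to the first count were 7 values under normexp background correction and 1 in the deposited values. Under normexp Plin2 gave 0.36 for the vector in vehicle animals and 0.24 for Scriptaid in empty-vector legs, and Plin4 gave 0.51 and 1.14 in those comparisons, 0.28 for the vector over both injections, -0.46 for the interaction and 0.92 for Scriptaid on the mean of both legs. The authors' deposited values gave -0.31 for the Plin5 interaction. The cause was not tested. Plin4 kept its direction in both single Scriptaid comparisons in every setting run. Leaving out 1 array could not turn it, since the groups do not overlap, so those runs show only the size. They gave between 0.55 and 0.74 for dnHDAC4/5 legs and between 0.64 and 0.76 for empty-vector legs. The number of perilipins called for Scriptaid in dnHDAC4/5 legs was 1, with 0 when edge spots were left out and 0 with normexp, and 0 to 1 when 1 array was left out. On the mean of both legs it was 0, with 1 under normexp and 1 when marked spots were kept. With the replicate block (the animal as a random block) Plin4 differed by 0.65 in dnHDAC4/5 legs, and no perilipin call changed. The animal block was not fitted to the mean of both legs. For Plin1, in 6 of 20 legs, the value was not well above background, which limits its differences. Counts of all genes called moved widely: for Scriptaid in dnHDAC4/5 legs, against 202, there were 1 with edge spots left out, 205 under the replicate block, 362 under a slide term and 476 without HS 2, and for the interaction, against 28, 0 with edge spots left out, 66 with the replicate block and 83 with normexp.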
